A study of Mus musculus with 9 samples.

Results

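Liver RNA of 3 rescue mice was compared with that of 3 wild-type mice over 19938 genes, to describe which differences from wild type remained at a single hour after a plasmid for Clock had been given to Clock mutants. Both groups belong to a series of 9 arrays, 1 per animal, and its 3 remaining arrays, from Clock-D19 mutants without the plasmid, are given beside them. Wild-type animals were C57BL/6J. Rescue animals carried the Clock-D19 mutation and had received 35 µg of a WT-Clock expression plasmid in the pLIVE vector, injected hydrodynamically into the tail vein at week 10. All groups ate a diet with 45% fat, begun at 10 weeks of age and kept up for 5 weeks, and shared 12 h of light per day and collection at zeitgeber hour 10, counted from lights on. The labels describe no control injection, so the plasmid, its injection and the mutation cannot be told apart from one another in this comparison. They give neither the sex of the animals nor the genetic background of the mutants. Hydrodynamic injection delivers DNA mainly to hepatocytes, and the endogenous mutant allele stays in every cell. Members were the arrays whose titles name them as rescue or wild type, that is 6 of 9, and every gene with a probe set that carries exactly 1 gene symbol.

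In the mammalian clock CLOCK and BMAL1 bind E-box sequences as a pair and switch on the Per, Cry and Rev-erb genes and many output genes. The PER and CRY proteins then block the pair, and the REV-ERB receptors repress Arntl, which encodes BMAL1, and other genes. The D19 mutation causes exon skipping in Clock and yields a protein that pairs with BMAL1 but activates poorly. In liver this loop times the enzymes of bile acid, lipid, NAD and heme metabolism.

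Values are RMA expression levels on the log2 scale, so a difference of 1 is a 2-fold difference. Differences are rescue minus wild type, with the SE of a linear model (limma) over all arrays. A gene was called where its Benjamini-Hochberg adjusted p over 19938 genes was under 0.05. The 12 measured hepatocyte markers had mean levels of 11.53 to 11.80 on the 6 arrays, against array medians of 6.12 to 6.20 over all genes, as a check of the tissue label. Levels near or below those of 1027 olfactory receptor genes (array medians 4.14 to 4.33) are called dim, because they need not be above background. The number of arrays limits the precision, and the p-values measure the spread between these animals. Because the RNA came from whole liver, fewer cells of a type and less RNA per cell cannot be told apart.

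Rescue liver differed from wild type in 454 of 19938 genes (2.28%). Of these, 185 were higher (0.928% of all genes) and 269 lower (1.35%), and 56 differed at least 2-fold, 28 in each direction. The farthest from wild type were the clock-driven genes Bhlhe41, Per3 and Usp2 and the bile acid enzyme gene Cyp7a1 on the low side, and Ntrk2, Mir122, Mir33, Chrna4 and the choline kinase gene Chka on the high side. The values of the groups did not overlap in any of the 454 genes, and the same held for 19.5% of all genes. The median absolute difference was 0.62 among called genes and 0.11 over all genes. The smallest called difference was 0.38.

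For most genes the interval of the difference was narrow. The 95% interval lay within 1.5-fold in either direction for 17881 genes (89.7%), with a median margin of 0.25 on either side. An unadjusted p under 0.05 was found for 2840 genes. Calls were rarer among the dimmest 40% of genes, at 52 of 7975 (0.652%), than among the others (3.36%). The count of calls varied with the features and arrays fitted together. It was 149 when all 35556 probe sets, named or not, entered the fit, and all 149 were among the 454. It was 282, 254 and 264 without rescue array 1, 2 or 3, and 242 and 233 without wild-type array 1 or 3. Without rescue array 2 the share of calls that were higher was 54.3%, against 40.7% with all arrays.

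**Figure D1:**
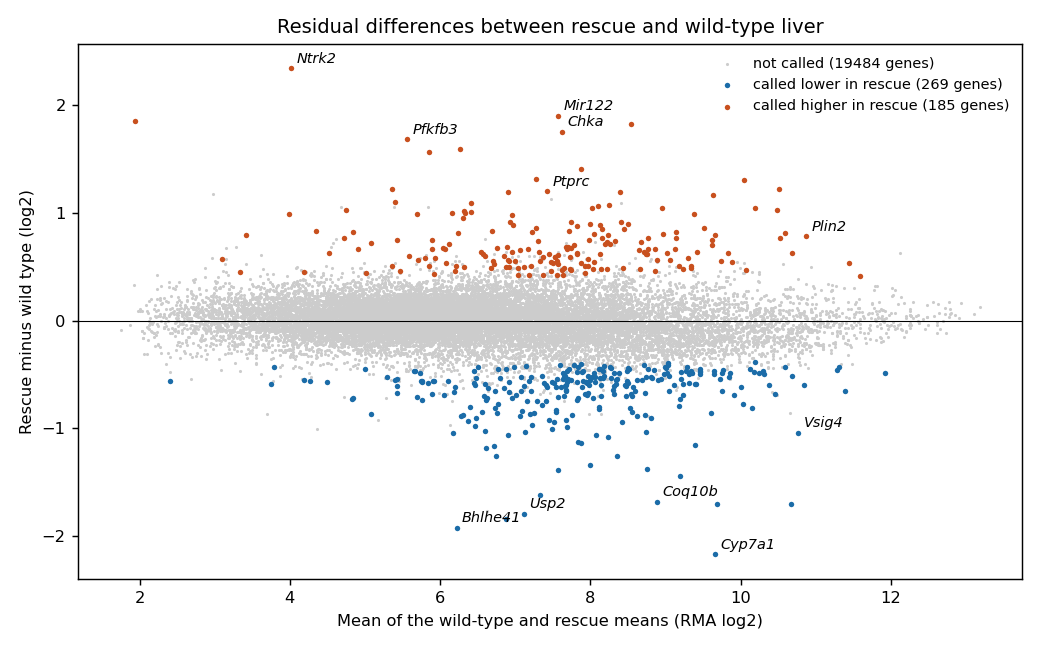
Difference between rescue and wild-type liver (rescue minus wild type, log2) against the mean of both group means (RMA log2), 1 point per gene. Orange points are the 185 genes called higher, blue points the 269 called lower and grey points the genes not called; called points lie at 0.38 or more from 0.

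Genes that CLOCK and BMAL1 activate were mostly lower in rescue. Of 18 measured members of that list 11 fell, 1 rose and 6 were not called, with a median difference of -0.70 against 0.01 over all genes. Across the 19 alternatives 8 to 11 of them fell, and the median lay between -0.78 and -0.54. The repressor gene Bhlhe41 had levels of 7.39, 7.23 and 6.92 on the wild-type arrays and 4.97, 5.04 and 5.77 on the rescue arrays, a difference of -1.92 ± 0.20 (adjusted p = 1.12e-04, limma, n = 3 per group). Every rescue array lay more than 1 log2 unit below every wild-type array. The mutant arrays were lower still, at 4.36, 3.79 and 4.05, where the gene is dim.

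The period gene Per3 read 8.02, 7.65 and 7.69 in wild type against 5.95, 5.56 and 6.34 in rescue, a fall of 1.84 ± 0.17 (adjusted p = 4.61e-05, limma). Its mutant values, 6.09, 6.21 and 5.96, lay within the rescue range. Usp2, which encodes a deubiquitinase, read 8.38, 7.85 and 7.80 in wild type, 6.11, 6.13 and 6.40 in rescue and 6.20, 6.29 and 6.13 in mutant, a rescue difference of -1.79 ± 0.15 (adjusted p = 2.16e-05, limma). For this gene rescue and mutant values interleaved, and both stood apart from wild type. Nampt, the rate-limiting enzyme gene of NAD salvage, read 9.85, 9.68 and 10.20 in wild type against 8.59, 8.41 and 8.42 in rescue, a fall of 1.44 ± 0.13. Ciart, a repressor of the CLOCK-BMAL1 pair, fell by 1.16 ± 0.14, from 7.44, 7.49 and 6.93 to 6.08, 6.04 and 6.26. Its rescue and wild-type values were separated by a gap larger than the range within rescue.

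Promoter sequences are shown for Bhlhe41 and Ciart, which fell and hold the E-box letters CACGTG (capitals), and for Per3, which fell by almost as much and holds none in this window. Each runs from 250 bases before the start to 50 after it and comes from RefSeq on GRCm38.p6. Bhlhe41 lies at chr6:145865371-145865670 on the minus strand, with 1 E-box 153 bases upstream. Ciart lies at chr3:95882179-95882478 on the minus strand, with E-boxes 116, 58 and 44 bases upstream. Per3 lies at chr4:151044616-151044915 on the minus strand, and its capitals mark the D-box letters TTATGTAA, 205 and 158 bases upstream; it was chosen after its values were seen.
Bhlhe41: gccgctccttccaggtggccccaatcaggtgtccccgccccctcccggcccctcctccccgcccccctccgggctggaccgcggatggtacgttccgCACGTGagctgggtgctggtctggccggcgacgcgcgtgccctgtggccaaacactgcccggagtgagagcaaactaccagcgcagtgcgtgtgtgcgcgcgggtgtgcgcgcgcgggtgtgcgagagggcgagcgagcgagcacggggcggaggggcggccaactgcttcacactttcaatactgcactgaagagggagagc
Ciart: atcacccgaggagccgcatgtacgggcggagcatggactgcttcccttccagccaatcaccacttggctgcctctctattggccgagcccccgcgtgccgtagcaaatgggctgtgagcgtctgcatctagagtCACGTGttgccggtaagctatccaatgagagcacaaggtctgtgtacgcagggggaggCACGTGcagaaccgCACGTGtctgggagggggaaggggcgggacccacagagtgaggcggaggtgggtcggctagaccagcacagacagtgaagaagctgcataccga
Per3: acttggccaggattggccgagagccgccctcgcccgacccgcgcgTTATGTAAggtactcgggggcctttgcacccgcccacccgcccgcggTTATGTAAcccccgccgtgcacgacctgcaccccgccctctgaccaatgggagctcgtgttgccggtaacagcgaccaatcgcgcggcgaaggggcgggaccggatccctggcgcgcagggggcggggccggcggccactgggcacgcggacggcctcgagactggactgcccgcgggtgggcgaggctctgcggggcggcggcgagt

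Both motifs were searched on both strands. The E-box was found for 5 of the 14 activated genes with a promoter in the table (35.7%), against 9.5% of 15614 tested genes with one. These 5 were Bhlhe41, Ciart, Tef and Per1, which fell, and Lonrf3, which was not called. Per3, Usp2, Nampt, Dbp, Hlf and Nr1d2 fell as well and held none in this window. Over all tested genes the E-box was found for 32 of 213 genes that fell (15.0%) and for 15 of 143 that rose (10.5%). The D-box was found for 6 of the 213 (2.82%), for 0 of the 143 and for 0.999% of all tested genes with a promoter. A match shows letters in this window and not a bound site.

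The factors that bind D-boxes and the remaining period genes were lower as well. Dbp read 7.70, 7.77 and 7.66 in wild type against 6.59, 6.54 and 7.10 in rescue, a fall of 0.97 ± 0.14 (adjusted p = 0.00169, limma). Tef fell by 0.92 ± 0.12 and Hlf by 0.60 ± 0.10, and for all 3 factors no rescue array reached the lowest wild-type array. Per1 (-0.53 ± 0.13, adjusted p = 0.0452), Per2 (-0.57 ± 0.13, 0.0348) and the REV-ERB gene Nr1d2 (-0.79 ± 0.17, 0.0199) fell too. These 3 calls were lost with all probe sets in the fit (adjusted p = 0.141, 0.125 and 0.109) and without single arrays. Per1 was not called without any 1 of the 6 compared arrays (-0.47 to -0.61) or without mutant array 3 (-0.53), Per2 without any of the 3 rescue arrays or wild-type array 2 or 3 (-0.46 to -0.60), and Nr1d2 without rescue array 1 or 2 or wild-type array 1 (-0.65 to -0.83).

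The remaining members of the list rose or were not called. Of its 18 measured members 4 lay above 0 and 14 below. Alas1, whose enzyme starts heme synthesis, read 7.63, 7.99 and 7.90 in wild type, 8.42, 8.44 and 8.79 in rescue and 7.23, 6.76 and 6.79 in mutant. It rose by 0.71 ± 0.15 above wild type (adjusted p = 0.0207, limma), a call lost without rescue array 3 (0.58), without wild-type array 1 (0.60) or 3 (0.73), and with all probe sets in the fit. Nr1d1, which encodes REV-ERB alpha, differed by 0.49 (95% interval -0.05 to 1.04) and the kinase gene Wee1 by 0.55 (0.17 to 0.93, adjusted p = 0.145). Wild-type array 3 was the lowest of its group for both, and without wild-type array 2 Wee1 was called (0.79, adjusted p = 0.0142). Bhlhe40 differed by -0.87 ± 0.22 (adjusted p = 0.0567), with rescue values of 8.04, 6.96 and 8.12 below wild-type values of 8.67, 8.48 and 8.56. It was called without rescue array 1 (-1.03) or 3 (-1.07), with the dimmest genes left out and with the replicate block. For Gys2 (0.14), Lonrf3 (-0.14) and Cry2 (-0.29) the 95% interval lay within 1.5-fold of wild type.

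Genes repressed by REV-ERB and the other clock components differed little or in both directions. Nfil3, a repressor that competes for D-boxes, read 7.59, 7.76 and 7.69 in wild type, 8.76, 8.52 and 8.42 in rescue and 9.29, 9.03 and 9.23 in mutant, a rise over wild type of 0.89 ± 0.12 (adjusted p = 0.00103, limma). Its 3 groups did not overlap, with rescue between the others. Arntl read 7.68, 7.90 and 8.16 in wild type against 7.37, 7.34 and 7.48 in rescue, a fall of 0.52 ± 0.12 (adjusted p = 0.037) that was not called in 10 of 19 alternatives, among them each rescue array left out (-0.49 to -0.56), wild-type array 2 or 3 (-0.52 and -0.39) and mutant array 1 or 3 (-0.52 in both). Elovl3, a fatty acid elongase gene, differed by 0.25 (-0.03 to 0.53), and its mutant level was 1.76 above wild type. Cry1 differed by 0.00 and Clock by 0.28 ± 0.26 (adjusted p = 0.719). Clock read 9.97, 9.24 and 9.30 in wild type, 10.33, 9.41 and 9.62 in rescue and 10.88, 9.89 and 10.55 in mutant, where it was 0.94 above wild type (adjusted p = 0.0266, limma); rescue differed from mutant by -0.66 (adjusted p = 0.168). Rescue overlapped both other groups. Where the probes lie within Clock was not analysed here, so it is not known whether they tell mutant, wild-type and plasmid transcripts apart. Of 8 other clock components, among them Rora, Csnk1d, Csnk1e, Btrc and Timeless, none was called and all 8 intervals lay within 1.5-fold.

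**Figure D2:**
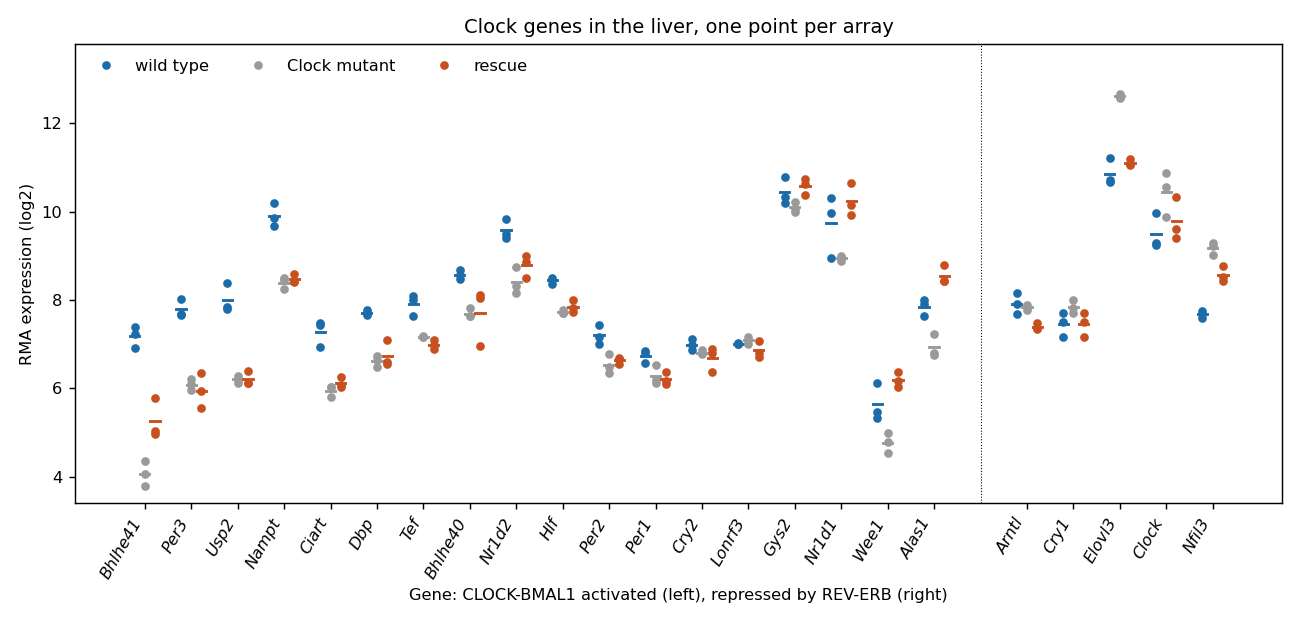
RMA expression (log2) of 18 CLOCK-BMAL1 activated genes (left of the dotted line) and 5 genes repressed by REV-ERB (right), 1 point per array and a bar at each group mean of 3. Bhlhe41, Per3, Usp2, Nampt and Ciart lie lower in rescue (orange) than in wild type (blue) with no overlap, and Alas1 and Nfil3 lie higher.

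The largest fall of all was outside the core clock. Cyp7a1, the rate-limiting enzyme gene of bile acid synthesis, read 10.55, 10.67 and 11.00 in wild type against 8.95, 7.61 and 9.15 in rescue, which is 4.5-fold lower (-2.17 ± 0.28, adjusted p = 9.18e-04, limma). Mutant arrays read 10.42, 10.18 and 10.22, so that rescue lay below both other groups (-1.71 against mutant, adjusted p = 0.00824). Rescue array 2 was the lowest, and without it the difference from wild type was still called (lowest and highest over the alternatives, -2.46 and -1.69).

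Several further falls had mutant levels close to those of rescue. Coq10b, which encodes a coenzyme Q binding protein, read 9.90, 9.54 and 9.75 in wild type, 7.95, 8.04 and 8.15 in rescue and 8.04, 7.96 and 8.02 in mutant (rescue difference -1.68 ± 0.11, adjusted p = 4.08e-06, limma). The glycerophosphocholine phosphodiesterase gene Gpcpd1 fell by 1.70 ± 0.17 and Nmrk1, the nicotinamide riboside kinase gene, by 1.34 ± 0.14. Their mutant differences from wild type were -1.71 and -1.33. Lpin1, a phosphatidate phosphatase gene, fell by 1.26 ± 0.13 (mutant -1.09), and the protein kinase gene Map2k6 by 1.13 ± 0.13 (mutant -1.37). Nrep (-1.39) and Slc16a12 (-1.14), a creatine transporter gene, fell too.

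Other falls differed in size between rescue and mutant. Upp2, a uridine phosphorylase gene, read 11.65, 11.46 and 11.46 in wild type, 10.62, 10.58 and 10.38 in mutant and 9.50, 9.77 and 10.19 in rescue (-1.70 ± 0.15 against wild type and -0.71 against mutant, adjusted p = 3.46e-05 and 0.0221, limma). Rescue was thus the lowest group. Nrg4, a secreted ligand of ErbB4, fell by 1.62 ± 0.13 in rescue with a mutant difference of -2.06, and the difference between rescue and mutant (0.44) was not called. Dsg1c, a desmoglein gene, stood at 7.36, 7.34 and 7.42 in wild type, 6.11, 6.38 and 5.85 in rescue and 5.33, 4.87 and 5.44 in mutant. It lay between the others in rescue, 1.26 ± 0.15 below wild type and 0.90 above mutant (adjusted p = 0.00839, limma). Gdap10 and Wfdc17 also lay between, at -1.15 and -1.06 from wild type. Atp6v0d2, a proton pump subunit gene, read 7.50, 6.80 and 7.28 in wild type, 7.41, 7.74 and 7.81 in mutant and 6.65, 5.21 and 6.19 in rescue. Its fall of 1.18 ± 0.27 (adjusted p = 0.035) was lost in 7 of 19 alternatives, among them without rescue array 2 (-0.78) or 3 (-1.27) and without wild-type array 1 (-1.03) or 3 (-1.14).

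On the high side, Ntrk2, the receptor gene for brain-derived neurotrophic factor, read 3.10, 2.77 and 2.66 in wild type, 5.05, 4.96 and 5.55 in rescue and 5.65, 5.40 and 5.74 in mutant. The rescue difference was 2.34 ± 0.16 (adjusted p = 4.08e-06, limma), and since wild type is dim its size is uncertain. Chka, which commits choline to phospholipid synthesis, read 6.50, 6.90 and 6.85 in wild type against 8.28, 8.77 and 8.45 in rescue, a rise of 1.75 ± 0.15. Asap2, an Arf GTPase-activating protein gene, rose by 1.31 ± 0.10, Clpx, of the mitochondrial ClpXP protease, by 1.22 ± 0.12, Slc30a10, a manganese exporter gene, by 1.19 ± 0.15, and Coq8a, of coenzyme Q synthesis, by 1.07 ± 0.12. For these 5 genes the mutant was 0.90 to 1.43 above wild type, and rescue and mutant did not differ by the test. The water channel gene Aqp8 rose by 1.19 ± 0.20, a call lost with all probe sets in the fit (adjusted p = 0.0598).

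Other rises were seen in rescue where the mutant was near wild type. Pfkfb3, whose product drives glycolysis, read 4.37, 4.87 and 4.93 in wild type, 4.85, 4.97 and 4.71 in mutant and 6.10, 6.79 and 6.32 in rescue. It rose by 1.68 ± 0.17 over wild type and 1.56 over mutant (adjusted p = 1.12e-04 and 5.66e-04, limma). The lowest rescue array was more than 1 log2 unit above the highest array of either other group. Gpr65, a proton-sensing receptor gene, rose by 1.59 ± 0.16 over wild type and 1.79 over mutant, Cib3, of calcium binding, by 1.41 ± 0.21 and 1.48, and the leukocyte phosphatase gene Ptprc by 1.20 ± 0.13 and 1.29. Chrna4, a nicotinic receptor subunit gene, read 7.48, 7.58 and 7.84 in wild type against 10.16, 9.11 and 9.09 in rescue (1.82 ± 0.23), with rescue array 1 the highest. G6pc2 (1.22), Ube2u (1.10) and Sytl5 (1.09) rose over wild type and over mutant; with all probe sets in the fit G6pc2 and Sytl5 were not called against wild type (adjusted p = 0.0725 and 0.069). Cldn1, of tight junctions, rose by 1.16 ± 0.12 over wild type and 0.56 over mutant, which itself was 0.60 above wild type.

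**Figure D3:**
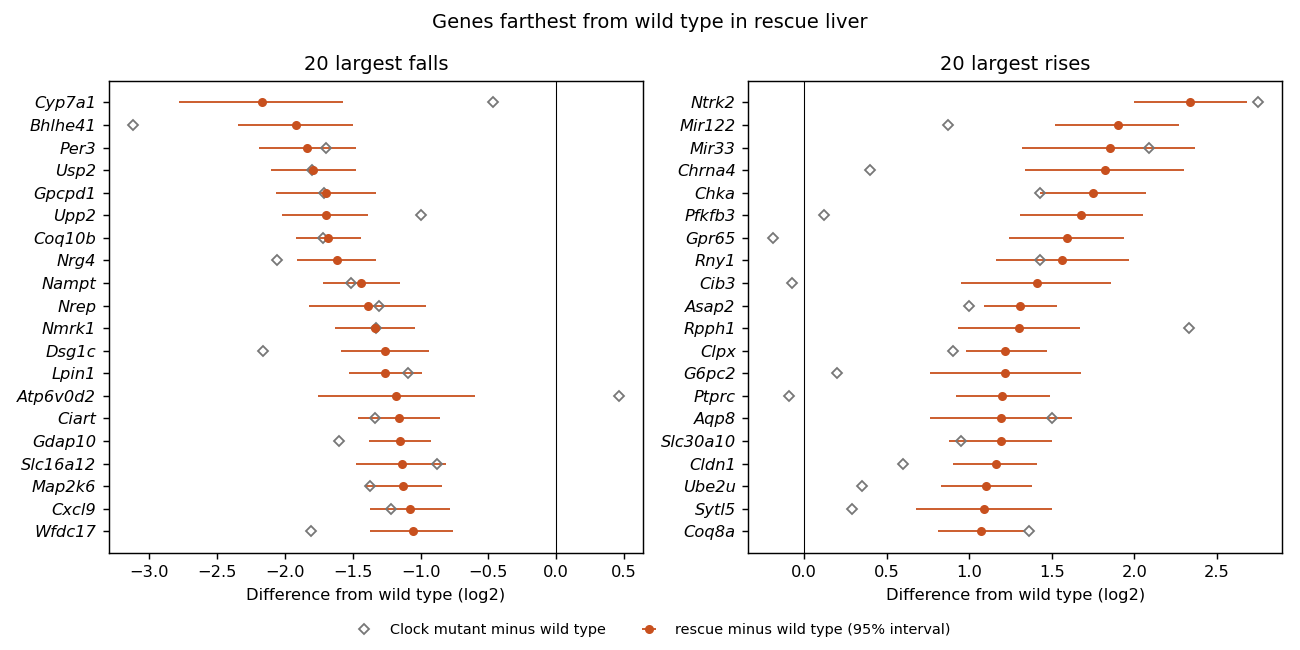
The 20 largest falls (left) and 20 largest rises (right) in rescue against wild type, as log2 differences with 95% intervals (orange), and the difference of the Clock mutant from wild type (grey diamonds). Cyp7a1 and Atp6v0d2 on the left, and Pfkfb3, Gpr65, Cib3 and Ptprc on the right, have mutant values near or across 0, while Usp2, Coq10b and Nmrk1 have mutant and rescue values that nearly coincide.

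Small RNA genes appeared among the rises. The gene of Mir122, the abundant hepatocyte microRNA, read 6.39, 6.87 and 6.61 in wild type, 7.70, 7.58 and 7.18 in mutant and 8.83, 8.55 and 8.18 in rescue, a rise of 1.90 ± 0.17 (adjusted p = 4.69e-05, limma). Rescue was the highest group. Rny1, a Y RNA gene, rose by 1.56 ± 0.19 and Rpph1, the RNA component of RNase P, by 1.30 ± 0.17, with mutant differences of 1.43 and 2.33. Mir33 (1.85) was dim in all groups. Mature microRNAs were not measured apart from their genes.

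Metabolic lists held few called members by number, and most of their medians lay near the 0.01 of all genes. Where a list held calls in a direction, their share was 3.23% to 8.7%, and it could rest on 1 gene. Over all genes the shares were 0.928% higher and 1.35% lower. In lists of 20 to 33 measured genes 1 call already exceeds those shares, so that an excess over them says little. Most members also lay outside the dimmest 40% of genes, where 3.36% were called in either direction. In bile acid synthesis and transport, 27 genes, 1 fell (Cyp7a1) and 2 rose. These were the bile salt export pump gene Abcb11 (0.41 ± 0.10, adjusted p = 0.0412) and Hsd3b7 (0.63 ± 0.16, 0.048), whose calls were lost in 11 and 10 of 19 alternatives; Abcb11 was not called without any 1 of the 6 compared arrays (0.36 to 0.44), nor Hsd3b7 without rescue array 1 or 3 or wild-type array 2 or 3 (0.50 to 0.62), nor either without mutant array 1 or 3. The median of the list was 0.04. In cholesterol synthesis, 20 genes, only Hmgcs1, the synthase at the head of the pathway, was called. It read 10.25, 10.07 and 10.22 in wild type against 11.07, 11.02 and 10.89 in rescue (0.81 ± 0.10, adjusted p = 8.76e-04, limma), and the list median was 0.16. Fdps (0.42) and Mvd (0.39) lay apart from wild type without a call, and Mvd was called when the dimmest genes were left out (adjusted p = 0.047).

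Among 25 genes of fatty acid and triglyceride synthesis 1 fell (Lpin1) and 1 rose. The latter was Mlxipl, which encodes the carbohydrate-responsive factor ChREBP (0.64 ± 0.12, adjusted p = 0.0121), a call lost without rescue array 1 (0.61) or 3 (0.63), without wild-type array 3 (0.52) and with all probe sets in the fit. Thrsp differed by -0.86 ± 0.24 (adjusted p = 0.0878), with rescue array 1 at 10.82 and array 2 at 9.62, and was called without rescue array 1 (-1.15). Of 21 lipid droplet and PPARG target genes, Plin2, which coats droplets, read 10.39, 10.51 and 10.54 in wild type against 11.45, 11.06 and 11.29 in rescue, a rise of 0.78 ± 0.12 (adjusted p = 0.00236, limma). Cd36, a fatty acid uptake gene, fell by 0.81 ± 0.16 (adjusted p = 0.0148), a call lost without rescue array 1 (-0.69), without wild-type array 1 (-0.63) or 3 (-0.80) and with all probe sets in the fit. Of 28 PPARA targets and oxidation genes 2 fell, the acyl-CoA thioesterase genes Acot3 (-0.94 ± 0.21) and Acot4 (-0.61 ± 0.14), with list median 0.01. Their calls were lost in 6 and 7 alternatives, for both without rescue array 2 or 3 or wild-type array 1 or 3 (Acot3 -0.71 without rescue array 2 and -0.81 without wild-type array 3, Acot4 -0.49 to -0.60), and for Acot4 also without wild-type array 2 (-0.64).

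In the list of 23 NAD and heme genes 2 fell, Nmrk1 and the nicotinamide methyltransferase gene Nnmt. Nampt, which fell, and Alas1, which rose, were counted among the CLOCK-BMAL1 activated genes and not in this list. Nnmt read 7.79, 7.60 and 7.52 in wild type, 8.06, 7.54 and 7.97 in mutant and 7.04, 6.41 and 6.84 in rescue (-0.87 ± 0.16 against wild type, adjusted p = 0.0105, limma). Rescue was the lowest group; the call was lost without wild-type array 1 (-0.80, adjusted p = 0.052) and with all probe sets in the fit (0.0767). Of 23 glucose and glycogen genes only Pfkfb3 was called. Of 31 amino acid and one-carbon genes Cbs, of homocysteine removal, rose by 0.86 ± 0.18 (adjusted p = 0.0177), a call lost without rescue array 1 (0.78) or 3 (0.76), without wild-type array 2 (0.78) or 3 (0.74) and with all probe sets in the fit. Of 33 xenobiotic genes 2 fell, Ces1d and Cyp3a13 (-0.46 each, adjusted p = 0.0251 and 0.0252), and both calls were lost without rescue array 2 or 3 or wild-type array 1 or 3 (Ces1d -0.40 to -0.47, Cyp3a13 -0.43 to -0.48). Cyp3a13 was also not called without rescue array 1 (-0.46), and neither was called with all probe sets in the fit.

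**Figure D4:**
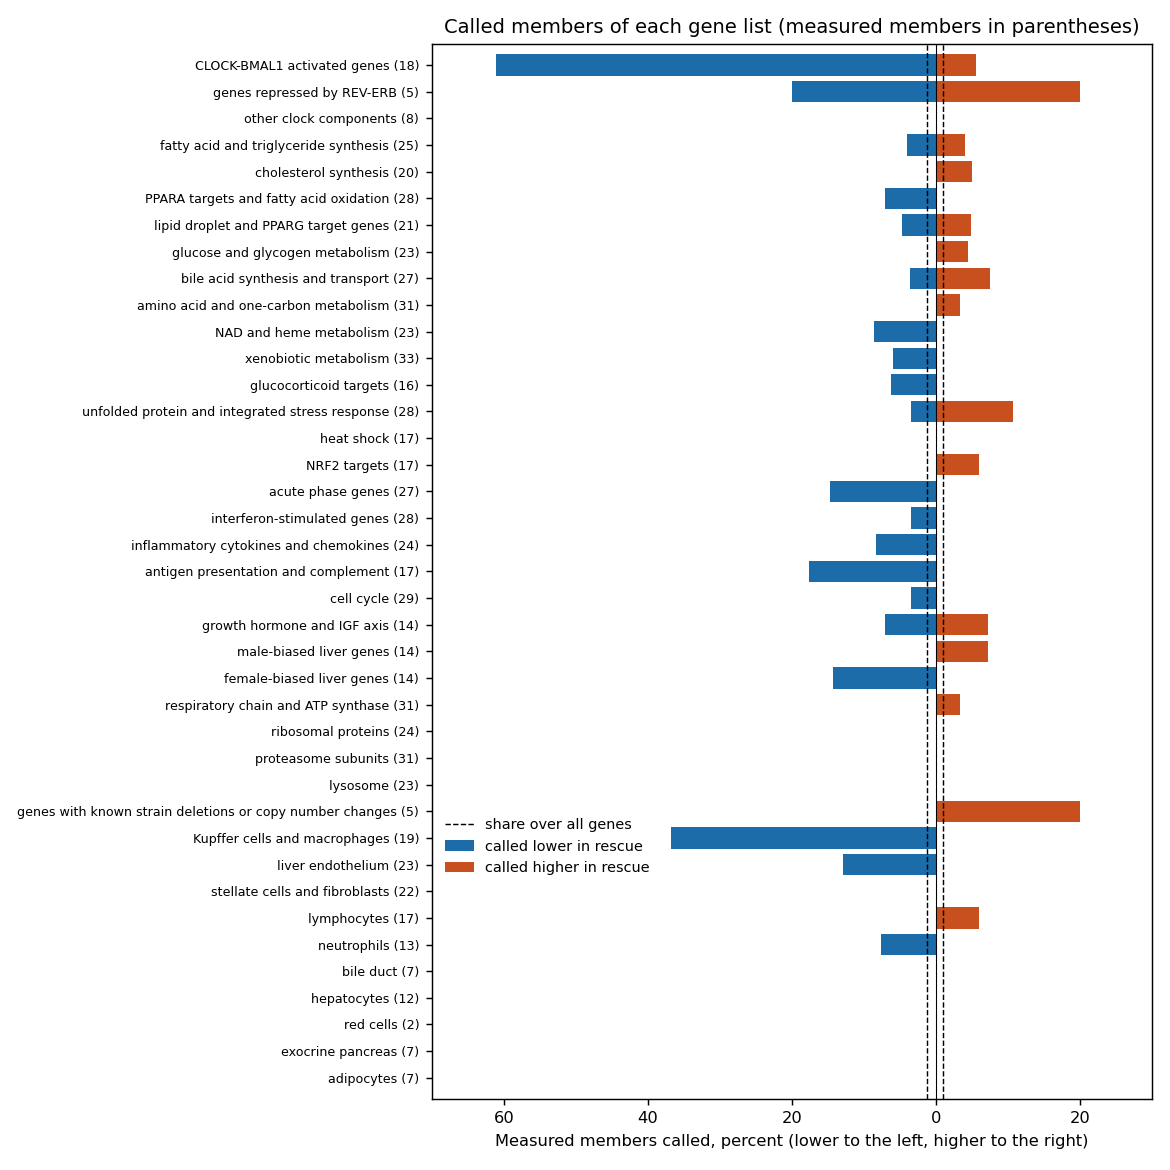
Share of the measured members of each of 39 gene lists called lower (blue, to the left) or higher (orange, to the right) in rescue than in wild type, in percent; dashed lines mark the shares over all genes (1.35% lower, 0.928% higher). The list of CLOCK-BMAL1 activated genes (61.1%) and that of Kupffer cells and macrophages (36.8%) have the longest bars to the left, and bars of short lists can rest on 1 gene.

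Most macrophage markers were lower in rescue than in wild type. Among 19 markers of Kupffer cells and macrophages there were 7 called falls and no called rise, with a median of -0.48. Of the 19, 17 lay below 0 and 2 above it, the highest at 0.62. Over the alternatives 3 to 8 fell and the median lay between -0.63 and -0.28. Averaged over the list, wild-type arrays read 7.44, 7.12 and 7.02, rescue arrays 6.84, 6.59 and 6.79 and mutant arrays 6.57, 6.56 and 6.63. Wild type and rescue did not overlap. Wild-type array 1 was the highest of the 9. Vsig4, a complement receptor gene of Kupffer cells, read 11.51, 11.16 and 11.20 in wild type, 10.30, 10.01 and 10.44 in rescue and 9.02, 9.15 and 9.29 in mutant (-1.04 ± 0.13 from wild type, adjusted p = 9.02e-04, limma). Rescue lay between the other groups for this gene. Cd68, of lysosomes (-0.99 ± 0.16), Cd163, a hemoglobin scavenger receptor gene (-0.89 ± 0.12), and Timd4, of apoptotic cell uptake (-0.75 ± 0.13), fell too, and Timd4 was not called with all probe sets in the fit (adjusted p = 0.061). The remaining 3 falls, named after their values were seen, were Adgre1 (-1.01 ± 0.21), Mpeg1 (-0.70 ± 0.13) and C1qb.

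Markers of other cells differed less. Of 23 endothelial markers 3 fell, Bmp2 (-0.75 ± 0.15), the Fc receptor gene Fcgr2b (-0.57 ± 0.10) and Clec1b (-0.49 ± 0.11), with list median -0.20 and 1 to 6 falls over the alternatives. Bmp2 was not called without rescue array 2 (-0.56) or wild-type array 1 (-0.76) or 2 (-0.68), nor Clec1b without rescue array 1 (-0.42) or 3 (-0.47) or any wild-type array (-0.47 to -0.52). The list mean was 7.72, 7.70 and 7.62 in wild type, 7.53, 7.28 and 7.49 in rescue and 7.18, 7.15 and 7.14 in mutant, in 3 separate ranges. None of 22 stellate cell and fibroblast, 12 hepatocyte, 7 bile duct, 2 red cell, 7 exocrine pancreas or 7 adipocyte markers was called at adjusted p under 0.05. Of 17 lymphocyte markers Ptprc alone was called, and it rose, while the list median was -0.01. Only 1 of the 7 bile duct, 2 of the 7 exocrine pancreas and 4 of the 17 lymphocyte markers lay outside the dimmest 40% of genes. Calls were rarer among those dim genes, so few calls in these lists say little. All 13 neutrophil markers were among the dimmest 40% of genes, and 1, Cxcr2, which is dim in all groups, was called lower (-0.59 ± 0.14). That call was lost in 8 of 18 alternatives, among them without any 1 of the rescue arrays (-0.56 to -0.61), wild-type array 1 (-0.44) or 2 (-0.57) or mutant array 1 (-0.59).

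**Figure D5:**
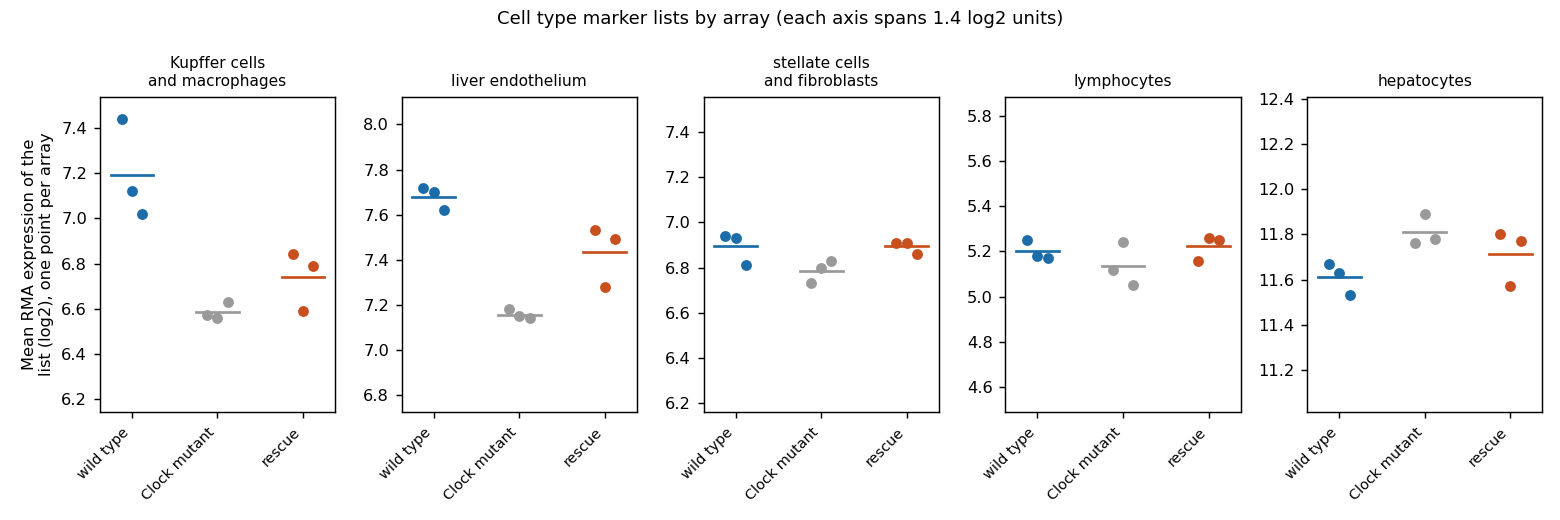
Mean RMA expression (log2) of 5 cell type marker lists, 1 point per array and a bar at the mean of 3 arrays, in wild-type (blue), Clock mutant (grey) and rescue (orange) liver. The rescue points of the macrophage list (6.59 to 6.84) and of the endothelial list (7.28 to 7.53) lie below the wild-type points, while those of the other 3 lists overlap them.

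Immune and stress lists held small numbers of calls, several at shares above those of all genes. Called lower were 14.8% of acute phase and 17.6% of antigen presentation and complement genes, against 1.35% of all genes. For inflammatory genes the share was 8.33% (2 of 24). For interferon-stimulated genes it was 3.57% (1 of 28), the smallest share above 0 that a list of this size can have. In the list for unfolded protein and integrated stress 10.7% were called higher, against 0.928%, and 3.57% lower. The mean macrophage marker level was lower in these arrays (6.59 to 6.84 in rescue against 7.02 to 7.44), and the part of that level in these results was not tested. Of 27 acute phase genes 4 fell and none rose, with list median -0.11 and 0 to 6 falls over the alternatives. The interleukin-6 receptor gene Il6ra fell by 0.78 ± 0.14 (adjusted p = 0.00854), a call lost with all probe sets in the fit (0.0643). Saa4, Orm3 and Steap4 fell by 0.55 to 0.87, and each call was lost without rescue array 2 or wild-type array 1 or 3, with values of -0.47 to -0.92; Saa4 and Orm3 were also not called without rescue array 1 (-0.52 and -0.74), Orm3 and Steap4 without rescue array 3 (-0.94 and -0.52), and Steap4 without mutant array 1 or 3 (-0.55). Of 17 antigen presentation and complement genes 3 fell, with list median -0.07. The class II genes H2-Ab1 (-0.72 ± 0.12) and H2-Aa (-0.68 ± 0.13) had mutant differences of -1.08 and -1.03, and H2-Aa was not called without wild-type array 1 (-0.59). The third, C1qb (-0.63 ± 0.15), was lost in 8 of 19 alternatives, among them without any rescue array (-0.54 to -0.71), wild-type array 1 or 2 (-0.52 and -0.59) or mutant array 3 (-0.63).

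The chemokine gene Cxcl9 read 8.62, 8.81 and 8.89 in wild type against 7.41, 7.75 and 7.94 in rescue (-1.08 ± 0.14, adjusted p = 7.93e-04, limma), and the adhesion molecule gene Vcam1 fell by 0.86 ± 0.12; they were the only calls among 24 inflammatory genes. Both stood apart from wild type on every rescue array. Of 28 interferon-stimulated genes Ifih1 alone fell (-0.50 ± 0.12), a call lost in 11 of 19 alternatives, among them without any rescue array (-0.45 to -0.52), wild-type array 1 or 3 (-0.52 and -0.38) or mutant array 1 or 3 (-0.50). In the list for the responses to unfolded protein and to integrated stress, 28 genes, 3 rose and 1 fell, with list median 0.17. The endoplasmic reticulum chaperone genes Calr (0.63 ± 0.11) and Hyou1 (0.68 ± 0.13) and the stress factor gene Atf5 (0.71 ± 0.13) rose, and Herpud1, of protein degradation at that membrane, fell by 0.86 ± 0.13 (adjusted p = 0.00313, limma). Hyou1 was not called without rescue array 1 (0.63) or 3 (0.64) or wild-type array 3 (0.65), and neither it nor Atf5 was called with all probe sets in the fit. No member was called among 17 heat shock, 24 ribosomal protein, 31 proteasome or 23 lysosome genes. The lysosomal gene Ctss lay 1.09 above wild type and was called in 6 of 19 alternatives. Among these were the 6 compared arrays alone (adjusted p = 0.0473, limma) and the fits without rescue array 3 (1.38) or wild-type array 1 (1.36). Of 17 NRF2 targets Gclc, of glutathione synthesis, rose by 0.53 ± 0.11 over wild type and 0.52 over mutant, a call lost without rescue array 3 (0.47) or wild-type array 3 (0.46) and with all probe sets in the fit.

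The remaining lists held 1 or 2 calls each. Bcl6, a repressor gene on the growth hormone axis, rose by 1.06 ± 0.17 (adjusted p = 0.00443; 0.0533 with all probe sets in the fit), with a mutant difference of 1.16. Igfals, which encodes a carrier subunit for IGF1, fell by 0.51 ± 0.10 from wild type and 0.53 from mutant, and was not called without wild-type array 3 (-0.49, adjusted p = 0.0554). Of 29 cell cycle genes Top2a fell by 0.55 ± 0.11, a call lost with the mean of the probe sets of the gene (-0.24, adjusted p = 0.408), without rescue array 1 or 2 and without any wild-type array (-0.50 to -0.57). Of 31 genes of the respiratory chain and ATP synthase Cox4i1 rose by 0.73 ± 0.11 (adjusted p = 0.00236, limma), and 29 of the 31 intervals lay within 1.5-fold of wild type. Of 16 glucocorticoid targets Per1 alone was called, a call lost in 9 of 19 alternatives, and 13 lay below 0, with list median -0.21. The largest difference in that list was that of the metallothionein gene Mt2, which read 9.08, 6.98 and 6.46 in wild type, 5.73, 5.23 and 6.27 in rescue and 6.35, 6.07 and 6.20 in mutant (-1.77 ± 0.46, adjusted p = 0.0615, limma). Wild-type array 1 stood far above the others. Mt2 was called without wild-type array 3 (-2.29, adjusted p = 0.0209), with the dimmest genes left out (0.043) and with the replicate block (0.0451). Of 14 male-biased liver genes Ntrk2 rose, and of 14 female-biased ones Acot3 and Atp6v0d2 fell. Of 5 genes with known copy number differences between mouse strains Glo1 rose by 0.47 ± 0.11 (mutant 0.46), a call lost in 7 of 19 alternatives, among them without any 1 of the 3 rescue arrays or wild-type array 1 or 3 (0.44 to 0.49).

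Genes near Clock in chromosomal order were counted, because rescue animals carry the mutant allele and its flanking sequence. Of the nearest 20 genes, 10 to each side, 1 was called (5.0%), of the nearest 100 there were 5 (5.0%) and of the nearest 200 there were 8 (4.0%), against 2.28% of all genes. Of the 8, 7 were lower and 1 higher. The count for 200 genes was 1 without rescue array 2 or 3 and with all probe sets in the fit, 5 without rescue array 1, and 4 or 3 without wild-type array 1 or 3. Ppat, an enzyme gene of purine synthesis and the called gene among the nearest 20, read 9.54, 8.96 and 9.27 in wild type, 8.38, 8.12 and 8.18 in rescue and 8.32, 7.91 and 8.19 in mutant (-1.03 ± 0.15, adjusted p = 0.00173, limma). Its rescue and mutant values overlapped, and every wild-type array was higher.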

How the data were processed

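Expression was measured in 9 livers, with 1 Affymetrix array each. The labels' protocols name TRIzol for extraction and biotin for labelling. Levels per probe set were deposited on the log2 scale, after RMA in Affymetrix Expression Console per the submitters' processing notes; neither versions nor the genome build is given in the sources used here. RMA gives all arrays about the same distribution, which would mask a change shared by most genes, and it shrinks the differences of dim ones. The highest value, 13.86, fits base 2.

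Of 35556 probe sets, 21789 had 1 gene symbol in the platform annotation, 1621 had several and 12146 none. The brightest probe set per gene over all arrays was kept (999 genes had several), and names were checked through Entrez identifiers against RefSeq (GRCm38.p6), which 21698 matched. All 9 arrays were fitted with 3 group means (limma 3.58.1, R 4.3.3; 6 residual and 8.475 prior degrees of freedom). P-values were adjusted over 19938 genes. The 3 comparisons share arrays and are given side by side without an overlap.

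There were 39 gene lists with 816 entries, 722 of them measured and 94 not analysed here; they get counts and medians and no set test. The members and lists were chosen with earlier results of these data known. Named genes are Clock, the clock lists, the 20 genes farthest above and the 20 farthest below wild type among called ones without overlap (unnamed predicted genes left out), from every other list the 4 members with the smallest p, or fewer, and called genes among the 10 nearest Clock on each side. On simulated data for this comparison over 19938 genes, 56% of 100 genes changed by 0.5 were called and 100% of 100 changed by 1, with 9 unchanged genes among 165 calls. The simulated noise was normal and independent between genes and arrays, with the spread of each gene taken from the fit. It held no deviation shared by the genes of an array, so these shares need not hold for the real arrays. There were 18 alternatives, and 1 (all probe sets in the fit) was added after the data were seen.

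Replicate numbers were not treated as pairs in the fit reported above. Same-numbered wild-type and rescue arrays deviated with correlations of 0.157, 0.095 and -0.111, and differently numbered ones with -0.184 to 0.103. For wild type and mutant the same-numbered values were 0.071, 0.191 and 0.047, and for mutant and rescue 0.183, 0.105 and -0.065. With 3 arrays a group these values cannot decide whether the numbers pair the samples.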

Additional observations from a re-analysis of the deposited data

Results flagged for a closer look

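Signal was also found in probe sets outside the named genes, in a fit over all 35556 probe sets. Of 12146 probe sets with no gene symbol in the annotation, 67 were called between rescue and wild type (0.552%), 41 of them higher and 26 lower in rescue. Of 1621 probe sets with several symbols, 7 were called (0.432%). In the same fit 159 of 21789 probe sets with 1 symbol were called (0.73%). Their genes are not named here. Groups of 3 arrays are too small for the test for single outlying samples.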

How the results depend on the processing

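The direction of every one of the 454 called genes was the same in the 19 alternatives in which it was tested. Leaving out or weighting arrays could not have reversed it, because the groups did not overlap in any of these genes. Changes of the prior, the block or the features fitted keep the same group difference. Only the alternatives that alter the values themselves could have reversed a direction. The number of calls varied. It was 149 (67 higher, 82 lower) with all probe sets in the fit, 704 (434 lower) with a trended and robust prior and 711 (441 lower) among the 11963 genes left without the dimmest 40%, where the number of genes whose 95% interval lies within 1.5-fold was 10586. Prior degrees of freedom were 3.623 in the first of these fits and 8.475 in the fit reported above. The first fit also adjusted p over all 35556 probe sets. The cause of these shifts was not tested. With 1 array left out at a time, calls ranged from 233 to 501, rises from 110 to 210 and falls from 116 to 291. Array weights gave 661 calls, 452 of them among the 454. Median centring, which moved the higher calls to 160 and the lower to 275, repeated quantile normalization (481), the mean of probe sets (451), the 6 arrays alone (390) and removal of the gene-span trend (455) stayed within 1.5 times. With the replicate number as a block 507 genes were called, 430 of them among the 454. Whether the numbers pair the samples is not known. Over named genes and alternatives, 3423 values kept their side of the threshold, 190 lost it and 83 gained it. Signal over background limits dim genes: 52 of the 7975 dimmest were called.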

Other observations

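Small RNA genes that were called all lay higher in rescue than in wild type. They were 4 of 297 microRNA genes (Mir107, Mir122, Mir16-1 and Mir33), 2 of 53 small nucleolar RNA genes (Snord118 and Snord37), both Y RNA genes (Rny1 and Rny3) and 1 of 3 RNase P RNA genes (Rpph1). The share called higher was 1.35% for microRNA genes and 3.77% for small nucleolar RNA genes, against 0.889% of 18555 protein-coding genes and 0.928% of all genes. Snord118, Snord37 and Mir16-1 were dim in wild type (means 3.93, 3.49 and 4.21), and Mir33 was dim in all groups. The sizes of these 4 rises are therefore uncertain, and both called small nucleolar RNA genes are among them. Rny3 read 9.49, 9.41 and 9.67 in wild type, 10.31, 10.22 and 9.93 in rescue and 10.51, 10.34 and 10.49 in mutant. Mir107 read 7.85, 7.66 and 7.81 in wild type, 8.53, 8.72 and 8.37 in rescue and 9.20, 9.15 and 8.48 in mutant. These genes were grouped after their values were seen, and no test was made of the group.

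Across chromosomes the share of genes called lay between 1.63% on chromosome 9 and 3.11% on chromosome 19, leaving out chromosome Y, where none of 9 genes was called. The median SD within groups was 0.122 in wild type, 0.129 in rescue and 0.131 in mutant.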
